A study of Mus musculus with 12 samples.

Results

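The GIMAP genes (GTPases of the immunity-associated protein family) were followed in RNA-seq of sorted mouse iNKT1 cells. The 8 members were taken by symbol, as Gimap1, Gimap3, Gimap4, Gimap5, Gimap6, Gimap7, Gimap8 and Gimap9. All 8 were among the 14004 genes of the deposited table, and all 8 passed the filter on low values that left 13058 genes for testing. iNKT1 cells are innate-like T cells that read lipids on CD1d and depend on the transcription factor T-bet. They were sorted as CD1d-tetramer-positive, YFP-positive primary cells from thymus and from liver. Control mice carried Tbx21Cre and Rosa26-YFP, and conditional knockout (cKO) mice carried the same alleles plus Ets1F/F, so that Cre made from the T-bet gene, Tbx21, removes floxed Ets1 and switches on YFP in the same cells. Cre was thus present in both genotypes, and deletion can only follow the onset of Tbx21 expression. Each of the 4 groups had 3 libraries, 12 in all. The labels give no age for the mice and do not say that each library came from a separate mouse, so the p-values below measure the spread between these libraries.

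GIMAP proteins share a GTP-binding domain and are made mainly in lymphocytes, where most are anchored to, or act at, membranes of the endoplasmic reticulum, lysosomes, mitochondria or lipid droplets. They are known for keeping resting lymphocytes alive: mice without Gimap5 or Gimap1 lose peripheral T cells, and Gimap6 protein binds a member of the GABARAP family of autophagy adaptors. Ets1, the deleted gene, encodes a transcription factor of lymphocytes that binds DNA around a GGAA core.

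The 8 genes lay side by side on chromosome 6, at chr6:48647234-48770851 in the mouse build GRCm38 (the same sequence as mm10), a span of 123.6 kb. In order of position they were Gimap8, Gimap9, Gimap4, Gimap6, Gimap7, Gimap1, Gimap5 and Gimap3. Gimap6 and Gimap3 are transcribed from the minus strand and the other members from the plus strand. Gimap7 spans 48718621 to 48724636, Gimap3 spans 48764464 to 48770851 and Gimap4 spans 48684549 to 48692060. Gimap1 shared 1107 of its 3073 exonic bases (36.0%) with the antisense transcript Gimap1os, a row of the table that is not a member. The sources used here do not say whether counting used strand, so reads of Gimap1 and Gimap1os may not be separable. Gimap3 and Gimap5 are close copies: 7.52% of the 50-base words in Gimap3 transcripts also occurred in Gimap5, and reads there could be assigned to either gene. For Gimap7 that share was 1.39%, all of it with the read-through gene Gm28053, and it was 0% for Gimap4, Gimap8 and Gimap9.

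Upstream sequence is shown for 3 members: Gimap7 and Gimap3, the members that passed the test between tissues, and Gimap6, whose window held the word CGGAAG on each strand. Each run below is the 250 bases before the RefSeq start (GRCm38.p6), written 5′ to 3′ on the gene's own strand. Capitals mark the ETS-type words CGGAAG and AGGAAG, or their reverse complements CTTCCG and CTTCCT where the word lies on the opposite strand. The windows are chr6:48718371-48718620 on the plus strand for Gimap7, chr6:48770852-48771101 on the minus strand for Gimap3 and chr6:48708245-48708494 on the minus strand for Gimap6.
Gimap7: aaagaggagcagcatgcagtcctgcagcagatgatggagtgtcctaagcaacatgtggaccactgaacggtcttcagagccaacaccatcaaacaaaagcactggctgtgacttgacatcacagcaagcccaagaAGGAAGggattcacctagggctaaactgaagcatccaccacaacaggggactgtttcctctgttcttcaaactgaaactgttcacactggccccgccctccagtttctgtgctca
Gimap3: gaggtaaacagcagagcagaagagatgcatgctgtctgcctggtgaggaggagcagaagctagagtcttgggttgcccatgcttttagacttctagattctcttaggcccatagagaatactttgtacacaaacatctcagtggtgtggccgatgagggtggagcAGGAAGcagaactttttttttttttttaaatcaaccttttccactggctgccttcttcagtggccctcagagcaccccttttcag
Gimap6: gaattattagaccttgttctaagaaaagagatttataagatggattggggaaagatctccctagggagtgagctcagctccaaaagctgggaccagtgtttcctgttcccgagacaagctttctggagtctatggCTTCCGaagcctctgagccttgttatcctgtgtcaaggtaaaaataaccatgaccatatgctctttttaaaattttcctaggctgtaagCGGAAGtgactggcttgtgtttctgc
Gimap7 had 1 AGGAAG, 115 to 110 bases before the start, and Gimap3 had 1, 85 to 80 bases before it. Gimap6 had CGGAAG at 26 to 21 bases and, on the opposite strand, CTTCCG at 115 to 110 bases before its start. Gimap4 likewise held 1 word, AGGAAG, on each strand, at 87 to 82 and 33 to 28 bases. Each of the 8 members had at least 1 such word on either strand in the window of at least 1 of its annotated starts; for Gimap8, which has 2 starts in the RefSeq table, it was the second. Of all 32851 RefSeq promoters, 39.2% held one of the words in a window of that length, 13.6% CGGAAG and 29.5% AGGAAG. In these windows no 2 of the words overlapped. The T-box word AGGTGTGA, present in 1.12% of all promoters on either strand, was in none of the members' windows. A match of letters is a description and says nothing on its own about binding.

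The 10 deeper libraries held 18487212 to 43435497 reads, and control liver library 3 and cKO liver library 2 held 3867406 and 3205325, as recovered from the values. These read numbers rest on an inferred adjustment in all 12 libraries. For control liver library 3 and cKO liver libraries 1 and 2 they have no other basis. Control thymus libraries 1 and 2 stood apart by having the most genes without a read (3528 and 2824, against 966 to 2223 in the other 10). Values below are in the units of the authors' deposited table, normalised counts that were read as adjusted to a common library size; 1 read was worth 0.615 to 1.25 units in the 10 deeper libraries and 6.06 and 6.66 units in the 2 shallow ones. In thymus, Ets1 was at 23745 ± 4279 (SD, n = 3) in control cells against 8225 ± 3176 in cKO cells, a log2 difference of -1.58 ± 0.27 (SE; limma, adjusted p = 0.0095; 0.072 without cKO thymus library 3). In liver it was at 17737 ± 1587 against 4602 ± 1107 (-1.97 ± 0.27, limma, adjusted p = 0.0012). Under the other settings tried, Ets1 was called in 26 of 30 in thymus and 28 of 30 in liver. All 8 of 8 markers of T and iNKT cells were present, with summed values of 94100 to 144126 in the 12 libraries. All samples are bulk RNA, in which fewer cells of a type and less RNA per cell cannot be told apart.

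Measured per kilobase of exon, Gimap4 was the most abundant member in all 4 groups. Gimap4, reported to speed the execution of apoptosis in T cells, averaged 17304 ± 6642 units per kb in thymus of control mice and 15546 ± 1177 in thymus of cKO mice, and 24014 ± 3459 and 21878 ± 1335 in their livers (SD, n = 3 each). Its lowest library lay above the highest library of the next member in every group. Its mean over the 12 libraries stood at percentile 99.9 of 10948 protein-coding genes ranked per kb, and it alone made up 41.6% to 63.3% of the summed value of the 8 members.

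Gimap6 and Gimap8 followed Gimap4 in thymus, and their libraries overlapped there. Gimap6 averaged 2519 ± 1031 units per kb and Gimap8, which carries several GTP-binding domains, 2070 ± 918 in control thymus. Gimap3, Gimap9 and Gimap1 came next in control thymus at 1373 ± 281, 1197 ± 379 and 839 ± 303 units per kb, each overlapping its neighbour in the order. Gimap5 averaged 518 to 554 units per kb in the 4 groups, the lowest member in both liver groups and next to lowest in both thymus groups. Gimap7 was last in thymus, at 88.1 ± 90.3 units per kb in control and 367 ± 326 in cKO cells. In liver it stood at rank 5 of 8 in control cells (2144 ± 193, separate from the members on either side) and at rank 3 in cKO cells (2515 ± 340, overlapping Gimap6 above and Gimap8 below). Over the 12 libraries the highest Gimap7 value was 233 times the lowest, against 2.13 to 4.86 times for the other 7 members.

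**Figure D1:**
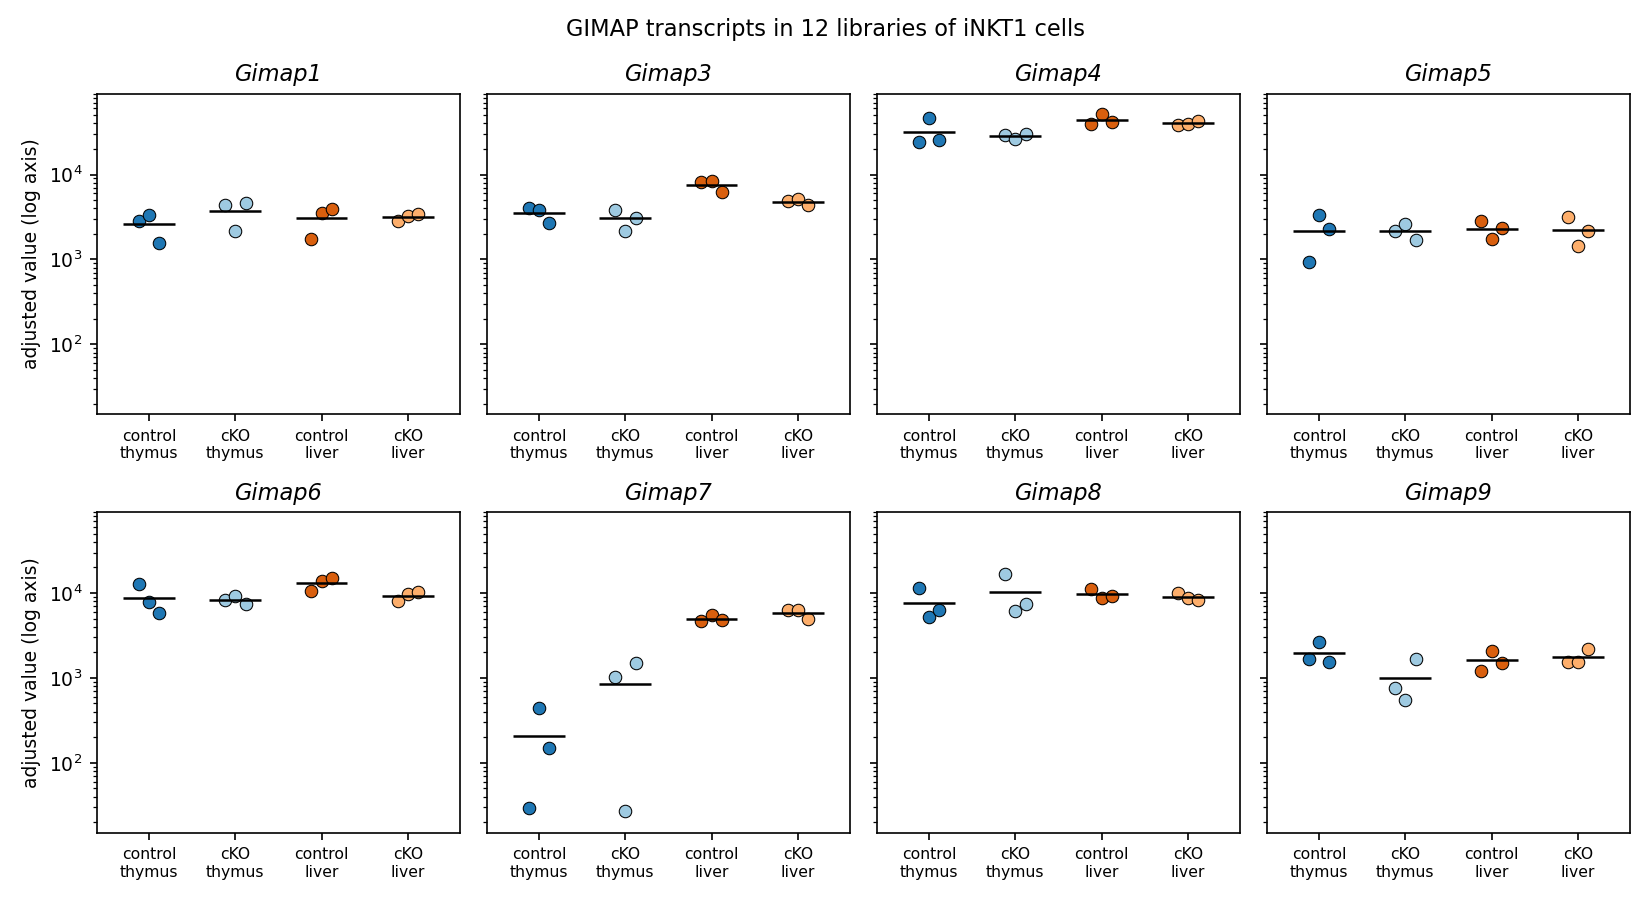
Adjusted value of each GIMAP gene (log axis, units of the deposited table) in each of the 12 libraries, by group; points are libraries and lines are means of 3. Gimap7 lies between 27.1 and 1513 in the 6 thymus libraries and between 4669 and 6315 in the 6 liver libraries, while Gimap4 lies at or above 24157 in all 12.

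The comparison of liver with thymus asks how these genes differ between iNKT1 cells of the organ where they arise and those settled in the liver. Gimap7 was the member that differed most. Gimap7 is a GTPase whose GTP hydrolysis is triggered when its molecules pair. Its values in control thymus libraries 1 to 3 were 29.2, 437 and 148, and in control liver 4669, 5498 and 4784. In cKO thymus they were 1023, 27.1 and 1513, and in cKO liver 6293, 6315 and 4936. All 6 liver libraries lay above all 6 thymus libraries, and the thymus libraries of each genotype were widely spread while the liver libraries were close together. The 2 lowest values, in control thymus library 1 and cKO thymus library 2, rested on 26 and 29 reads.

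In control cells the Gimap7 mean rose from 205 ± 209.8 in thymus to 4984 ± 449 in liver (SD, n = 3 each). The log2 fold change was 5.31 ± 1.10 (SE), a 39.7-fold difference with a 95% interval of 8.08 to 195 (limma, adjusted p = 0.028). This fold compares means of log2 values, on which low libraries weigh heavily, and is not the ratio of the printed means. Gimap7 was the only member called of the 8, while 79 of 13058 genes were called in this comparison (0.605%; 0.337% higher in liver). Under the other settings tried it was called in 19 of 30, with fold changes of 4.28 to 6.21 (log2) and adjusted p of 0.0012 to 0.23. Among single libraries, the call was lost without control thymus library 1 (4.28, adjusted p = 0.096), without control liver library 1, 2 or 3 (0.13, 0.13 and 0.12), and without cKO liver library 1 or 2 (0.051 and 0.0501). The call was lost too with the replicate number fitted as a block, though the numbers were not shown to pair the libraries. It was also lost without both control thymus libraries 1 and 2 (5.06, adjusted p = 0.21) and in edgeR's quasi-likelihood test on recovered reads (4.60, adjusted p = 0.062), and kept in DESeq2 (4.59, adjusted p = 0.0024).

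In cKO cells the Gimap7 mean was 854 ± 757 in thymus and 5848 ± 790 in liver. The log2 fold change was 4.05 ± 1.10, 16.5-fold with an interval of 3.37 to 81, and it was not called (limma, adjusted p = 0.18). As in control cells, the fold is not the ratio of the printed means. No member was called in cKO cells by limma, edgeR or DESeq2, against 29 of all genes by limma (0.222%). At an unadjusted p under 0.05 (limma) there were 3 of 8 members, against 7.60% of all genes. Without cKO thymus library 2 the Gimap7 estimate was 2.22 (log2). Over 30 other settings it was called in 2, with adjusted p of 0.018 to 0.60. The tissue difference was not shown to depend on genotype: the interaction for Gimap7 was -1.26 ± 1.55 (limma, adjusted p = 0.95).

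Averaged over both genotypes, a contrast added after the data had been seen, Gimap7 was higher in liver by 4.68 ± 0.77 on the log2 scale, 25.6-fold with an interval of 8.31 to 78.8 (limma, adjusted p = 0.0032). This call held in 28 of 29 other settings and was lost without the variance trend (adjusted p = 0.063). In this contrast 2 of 8 members were called, against 182 of all genes (1.39%; 0.72% higher and 0.674% lower). For the same 2 members all 6 liver libraries lay above the 6 thymus libraries, against 1.48% of all genes without overlap (0.888% higher and 0.59% lower).

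The other member called over both genotypes was Gimap3, a GTPase of mitochondria and the endoplasmic reticulum known for its part in the inheritance of mitochondrial DNA variants. Gimap3 had 4062, 3839 and 2713 in control thymus and 3859, 2138 and 3106 in cKO thymus. In control liver it had 8077, 8411 and 6196, and in cKO liver 4819, 5131 and 4383. Liver was higher than thymus in every library, and the lowest liver value lay just above the highest thymus value. The difference over both genotypes was 0.90 ± 0.22 (log2), 1.86-fold with an interval of 1.35 to 2.57 (limma, adjusted p = 0.049). This value sat at the threshold: Gimap3 was called in 13 of 29 other settings, with adjusted p from 0.0044 to 0.21. The call was lost without control thymus library 3 (adjusted p = 0.064), cKO thymus library 2 or 3 (0.12 and 0.077), control liver library 1, 2 or 3 (0.11, 0.14 and 0.085) or cKO liver library 1, 2 or 3 (0.11, 0.13 and 0.10). With the replicate number fitted as a block it was lost too. Within genotypes Gimap3 was not called: 1.10 ± 0.31 in control (limma, adjusted p = 0.14) and 0.69 ± 0.31 in cKO cells (adjusted p = 0.61).

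Gimap4 had 24157, 45860.1 and 25344 in control thymus and 29119, 26171 and 30384 in cKO thymus. In liver it had 39400.2, 51340.2 and 41601 in control and 38432, 39149 and 42991 in cKO cells. Control thymus library 2 was the only thymus library at the level of the liver libraries. The difference over both genotypes was 0.51 ± 0.15 (log2; limma, adjusted p = 0.10), and without control thymus library 2 it was 0.66 with an adjusted p of 0.0062. Over the 29 other settings that p ran from 0.0062 to 0.50, and Gimap4 was called in 5. In control cells alone Gimap4 differed by 0.53 ± 0.21 (adjusted p = 0.30), and without that library by 0.82 (adjusted p = 0.039).

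The remaining 5 members were not called between tissues. Gimap6, with 5855 to 12824 in thymus and 8007 to 14923 in liver, differed by 0.40 ± 0.19 over both genotypes (log2; limma, adjusted p = 0.36). Gimap8, Gimap9, Gimap5 and Gimap1 differed by 0.19 ± 0.24, 0.33 ± 0.35, 0.12 ± 0.34 and 0.04 ± 0.30, with the libraries of the tissues overlapping for each. All 8 estimates over both genotypes were above 0, as were 59.4% of all genes, and the members' median was 0.37 against 0.20 for all genes. After TMM rescaling, which moved the median of all genes from 0.20 to 0.07, the estimates of Gimap1 and Gimap5 fell below 0 (-0.11 and -0.03) and the other 6 stayed above it. In control cells alone, 2 of 8 members (Gimap3 and Gimap7) had liver libraries all above the thymus libraries, against 9.55% of all genes (5.83% all below, 15.4% either way). In cKO cells there were 3, Gimap3, Gimap4 and Gimap7, against 8.81% (7.26% all below, 16.1% either way).

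**Figure D2:**
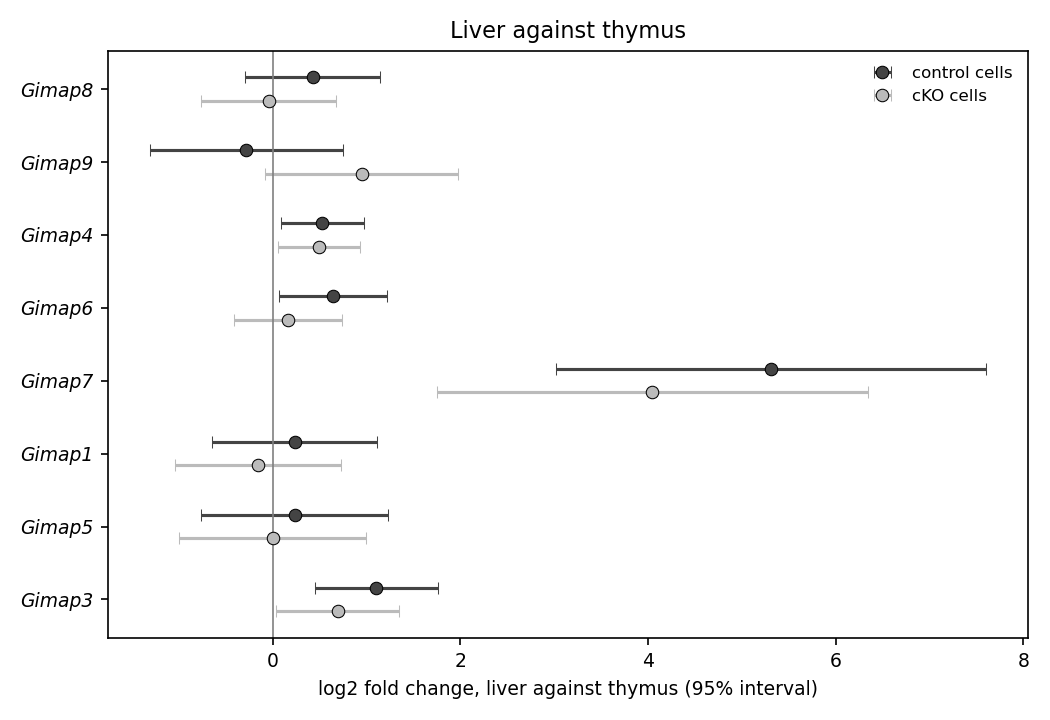
Log2 fold change of each GIMAP gene in liver against thymus, in control (dark) and cKO (light) cells; points are limma estimates, bars 95% intervals, and genes are in chromosome order from top to bottom. Gimap7 lies apart from the other members at 5.31 and 4.05, and the other 7 lie between -0.28 and 1.10.

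Summed over the 8 members, GIMAP transcripts made up 0.197% to 0.266% of the deposited total in the thymus libraries and 0.281% to 0.400% in the liver libraries. The tissues did not overlap in this share. The total includes mitochondrial ribosomal RNA, at 23.2% to 34.2% by library, and the share was not rescaled for it. Over both genotypes the median log2 difference of all genes between liver and thymus was also above 0 (0.20). Gimap7 accounted for 0.050% to 2.61% of the sum in thymus and 5.66% to 8.41% in liver.

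Markers of other cells also differed between the tissues. Hepatocyte markers, 5 of 8 in the table, summed to 802 to 1808 in the liver libraries and at most 429.8 in the thymus libraries, mostly Alb. Endothelium is known to express some GIMAP genes as well. Of 12 endothelial markers 2 (Pecam1 and Eng) were rows of the table, and they summed to 463 to 671 in control liver, 1.2 to 88.8 in cKO liver, 71.8 to 302 in control thymus and at most 68.5 in cKO thymus. Nearly all of this sum was Pecam1, which averaged 584 in control and 40.03 in cKO liver, and 197 and 24.2 in thymus. B cell markers, 6 of 8 in the table and led by Ighm, summed to 5701 to 8124 in control liver, 1159 to 2082 in cKO liver and 1641 to 5693 in thymus. Myeloid markers, 6 of 8, summed to 25.6 to 1301 in liver and 92.3 to 337 in thymus. Of 9 neutrophil markers 1, Mmp9, was a row of the table, and the others, S100a8 and S100a9 among them, were not. Mmp9 was at 3033 to 3585 in control liver and at most 2.55 elsewhere. Markers of immature thymocytes, 7 of 9, summed to 2387 to 8442 in thymus and 5595 to 14835 in liver, mostly Cd4 and Themis, whereas Rag1 averaged 162 (control) and 55.7 (cKO) in thymus against 0.27 and 0.30 in liver. NK markers, 5 of 5, summed to 1219 to 6246 in thymus and 1020.3 to 3275 in liver. The sum was led by Klre1, which averaged 3293 (control) and 1246 (cKO) in thymus and 1454 and 934 in liver. Klri2 and Klra8 were also lower in control liver than in control thymus. Ncr1 went the other way, at 0.031 and 0.0015 in thymus against 254 and 78.2 in liver. So did Eomes, at 8.36 and 29.0 against 134 and 67.7. The part of these cells in the GIMAP values was not tested.

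The comparison of cKO with control cells asks what loss of Ets1 does to these transcripts. No GIMAP gene was called. In thymus 0 of 8 members were called by limma, edgeR or DESeq2, against 83 of 13058 genes by limma (0.636%), 51 by edgeR and 619 by DESeq2, and 1 of 8 had an unadjusted p under 0.05 (13.2% of all genes). In liver 0 of 8 were called by any of these tools, against 66 genes by limma (0.505%), 39 by edgeR and 272 by DESeq2, and 0 of 8 had an unadjusted p under 0.05 (6.92% of all genes). Averaged over both tissues (297 genes, 2.27%) and in the interaction of genotype and tissue (1 gene, 0.00766%), the 3 tools again called 0 of 8, with 0 of 8 under an unadjusted p of 0.05 (13.7% and 5.38% of all genes). Over all other settings the lowest adjusted p of a member in these 4 contrasts was 0.082, for Gimap7 in thymus without cKO thymus library 2, where its estimate was 3.31.

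**Figure D3:**
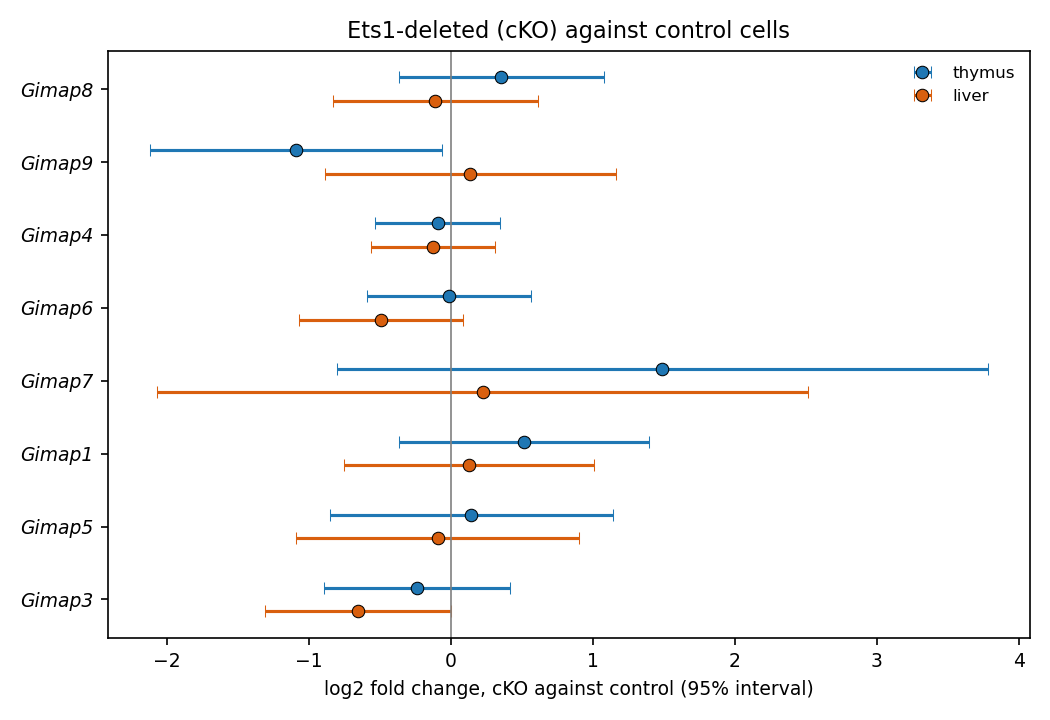
Log2 fold change of each GIMAP gene in cKO against control cells, in thymus (blue) and liver (orange); points are limma estimates and bars 95% intervals, with genes in chromosome order from top to bottom. None was called; Gimap4 has the narrowest intervals, and Gimap7 the widest.

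The thymus estimates pointed both ways, 4 up and 4 down, with a median of 0.07 against 0.24 for all genes. TMM rescaling moved the median of all genes in thymus from 0.24 to 0.00 and the called genes from 41 higher and 42 lower to 28 and 80; 0 members were called there too. Gimap9 had 1693, 2679 and 1527 in control thymus, and the cKO thymus libraries had 767, 551 and 1683. Of the 3 cKO libraries, 2 lay below all control libraries and the other lay among them. Its estimate was -1.09 ± 0.49 (log2; limma, unadjusted p = 0.038, adjusted p = 0.34), and the interaction with tissue was 1.23 ± 0.69 (adjusted p = 0.93). Gimap7, spread widely in both genotypes, was estimated at 1.49 ± 1.10 with an interval of -0.81 to 3.78 (limma, adjusted p = 0.59).

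Gimap3 and Gimap6 had liver values that were lower in all cKO libraries than in all control libraries. Of all genes, 8.66% were separated in that direction and 9.99% in the other, 18.6% together. Gimap6 had 10691, 13778 and 14923 in control liver and 8007, 9621 and 10303 in cKO liver. The groups were separated by a narrow gap between control library 1 and cKO library 3. The Gimap6 estimate was -0.49 ± 0.28 (log2; limma, adjusted p = 0.84). For Gimap3 it was -0.65 ± 0.31 with an interval of -1.31 to 0.0025 (adjusted p = 0.72). In thymus the cKO and control libraries of all 8 members overlapped, while 14.5% of all genes did not overlap there (7.6% higher and 6.89% lower in cKO cells).

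The intervals bound what these libraries could show. For Gimap4 the change with genotype was -0.09 (-0.53 to 0.35) in thymus and -0.13 (-0.57 to 0.31) in liver on the log2 scale, and for Gimap8 it was 0.36 (-0.37 to 1.08) and -0.11 (-0.83 to 0.61). For Gimap1, required for the survival of mature lymphocytes, it was 0.52 (-0.36 to 1.4) and 0.13 (-0.75 to 1.01). For Gimap5, whose protein sits on lysosomes, it was 0.14 (-0.85 to 1.14) and -0.09 (-1.09 to 0.90). For Gimap7 in liver it was 0.23 (-2.07 to 2.52), an interval set by the spread of Gimap7 in thymus too, since the 4 groups share 1 estimate of variance.

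Genes of pathways tied to GIMAP proteins were counted in the same fits. Of 10 GABARAP and LC3 genes (autophagy adaptors and their machinery), 10 BCL2 family genes (regulators of apoptosis) and 5 GSK3 and beta-catenin genes, all tested, limma and edgeR called 0 in every contrast. DESeq2 called 0 BCL2 family genes in any contrast, 1 GABARAP and LC3 gene in thymus by genotype, and 1 GSK3 and beta-catenin gene both in thymus by genotype and in control cells by tissue. In those contrasts DESeq2 called 619 and 478 of 13058 genes. At an unadjusted p under 0.05 (limma) there were 2, 1 and 2 of the genes in thymus by genotype, against 13.2% of all genes. In liver there were 0, 0 and 0, against 6.92%. In control cells by tissue there were 1, 1 and 3, against 12.7% of all genes.

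Among 15 genes of lymphocyte quiescence and IL-7 signalling, 14 were tested. In thymus 2 fell in cKO cells and 0 rose: Il7r, the IL-7 receptor alpha chain (log2 fold change -1.80 ± 0.32; limma, adjusted p = 0.012), and Jak3, a kinase of IL-7 signalling (-2.75 ± 0.58, adjusted p = 0.038). In liver S1pr1, which guides lymphocytes out of tissues, rose by 3.53 ± 0.60 (limma, adjusted p = 0.0067) and 0 fell. Over both tissues 3 rose (among them S1pr1 by 1.96 and Bach2 by 1.71) and 2 fell (log2 fold change -2.20 for Jak3 and -0.99 for Il7r). Of all genes, limma called 0.636% by genotype within thymus, 0.505% within liver and 2.27% when the tissues were averaged. The list's median was 0.21 in thymus and -0.0014 in liver, against 0.24 and 0.02 for all genes. In the interaction 0 of 14 were called by limma or edgeR and 2 by DESeq2, which called 113 of 13058 genes there. An unadjusted p under 0.05 (limma) was reached by 4 of 14, against 5.38% of all genes. Il7r in thymus was called in 23 of 30 other settings and lost its call without control thymus library 2, cKO thymus library 1 or library 3 (adjusted p up to 0.079). S1pr1 in liver was called in 28 of 30 and lost its call without cKO liver library 1 (adjusted p = 0.076), as it did over both tissues. Jak3 in thymus was called in 14 of 30 and lost its call on leaving out any 1 of the 12 libraries except control thymus library 3 (adjusted p up to 0.15), while over both tissues it kept its call in all 12 such fits. Over both tissues, Bach2 lost its call without cKO thymus library 1 or 3, or any 1 of the control liver or cKO liver libraries (adjusted p up to 0.11). Il7r lost its call there without cKO thymus library 1 or 3, control liver library 1 or 2, or cKO liver library 2 or 3 (adjusted p up to 0.088).

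Il7r differed between tissues in the direction opposite to Gimap7. In control cells it was at 39232 ± 11152 in thymus and 3638 ± 1352 in liver, a difference of -3.47 ± 0.32 on the log2 scale (limma, adjusted p = 1.2e-05), and this was called in all 30 other settings. In cKO cells it averaged 11272 ± 3306 in thymus and 3040 ± 419 in liver (-1.86 ± 0.32, adjusted p = 0.020), called in 24 of 30 other settings and lost without cKO thymus library 1 or 2 or cKO liver library 2 or 3 (adjusted p up to 0.15). In each genotype it was the 1 gene of the list that fell and 0 rose. Limma called 0.268% (control) and 0.115% (cKO) of all genes lower in liver. Over both genotypes Satb1, a chromatin organiser of T cells, also fell in liver (-0.64 ± 0.14, adjusted p = 0.025), and lost its call without cKO thymus library 2 or 3, control liver library 2 or 3, or cKO liver library 1 or 2 (adjusted p up to 0.086).

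The chromosome around the cluster was compared in the same way. Of the 15 other genes of the table within 500 kb on either side, Gimap1os among them, limma called 0 in any contrast. edgeR called 1 over both tissues by genotype and 0 in the other contrasts, and DESeq2 called 1 to 3 in 5 of the 7 contrasts. In those 5 contrasts DESeq2 called 272 to 758 of 13058 genes, and edgeR called 253 of 13083 over both tissues. By tissue in control cells 5 of 15 had an unadjusted p under 0.05, against 12.7% of all genes. Tmem176b, a membrane protein gene next to the cluster, had an estimate of 4.98 over both genotypes, with an SE of 1.28 against 0.77 for Gimap7 (limma, adjusted p = 0.063). Tmem176a beside it was at 4.22 (adjusted p = 0.25), and AI854703, just before Gimap8, at 3.75 (adjusted p = 0.18). By genotype in liver 13 of 15 neighbours, Gimap1os among them, had estimates below 0, while 51.5% of all genes had estimates above 0. The neighbours' median was -1.09 against 0.02 for all genes, with SEs from 0.34 (Gimap1os) to 2.40 (Tmem176a). Of the 15, 3 had an unadjusted p under 0.05 (limma), against 6.92% of all genes. Gimap1os itself averaged 3049 ± 682 in control thymus and 6641 ± 2174 in control liver, all 3 liver libraries above the 3 thymus libraries, and was not called (1.10 ± 0.34, limma, adjusted p = 0.18).

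**Figure D4:**
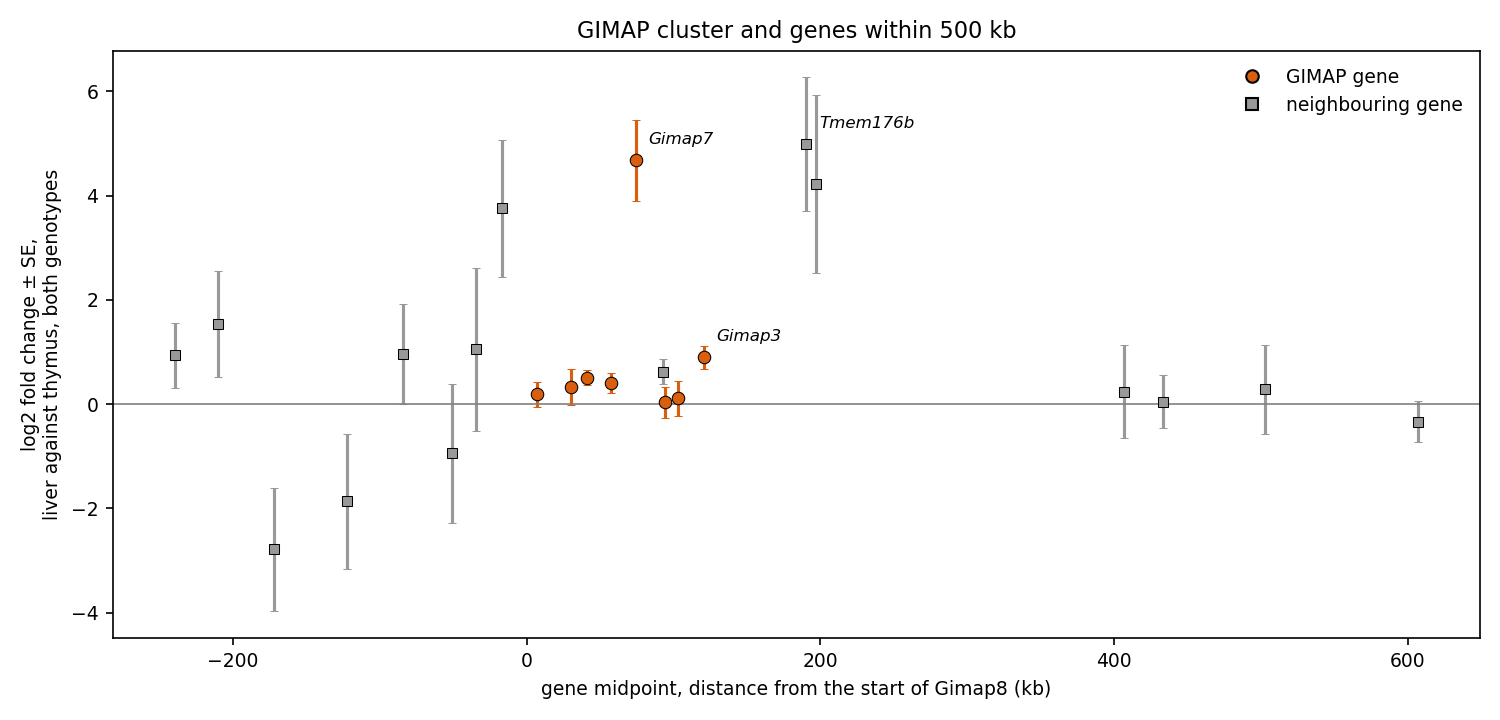
Log2 fold change (± SE) in liver against thymus over both genotypes, for GIMAP genes (circles) and the other genes of the table within 500 kb (squares), against distance of the gene's midpoint from the start of Gimap8 in kb. Gimap7 at 4.68 stands above its immediate neighbours in the cluster, all at or below 0.90, and 3 flanking genes, Tmem176b (4.98), Tmem176a (4.22) and AI854703 (3.75), are as high or nearly so with wider errors. AI854703 averaged 0.031 (control) and 0.0015 (cKO) units in thymus, so its estimate depends on the 1 added before the log.

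Likeness to the GIMAP pattern was measured over the 12 libraries, which share tissue, genotype and depth differences, and is given as a description. The 5 protein-coding genes closest to the mean of the 8 standardized members were Nif3l1 (Pearson r = 0.90), Ccdc51 (0.90), Tpst1 (0.89), Tasp1 (0.89) and Mocos (0.88). By Spearman's rho 1 of these 5, Nif3l1 (0.97), was again among the closest 5. Nif3l1 averaged 20.6 (control) and 30.8 (cKO) in thymus, and 356 and 238 in liver. Mocos, Ccdc51 and Tpst1 were low in control thymus, at 1.19, 2.73 and 6.94, and Tasp1 averaged 1013 there. For Gimap7 alone, a profile chosen after its values were seen, the closest 5 included Nif3l1 (r = 0.93), Ms4a6d (0.92), Mtss1 (0.91) and Ndc80 (0.91), and 0 of the 5 were shared with the order by Spearman's rho. Ms4a6d and Mtss1 each averaged 0.42 in control thymus, less than 1 read, and Ndc80 averaged 84.9.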

How the data were processed

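RNA-seq of 12 libraries (4 groups of 3) was used. Per the labels' protocols, RNeasy mini kits gave the RNA, and the Nugen Ovation Ultralow kit the libraries. Build mm10, DESeq2, HTSeq 0.6.1, STAR, TopHat2 2.1.0 and Trimmomatic 0.33 are listed in the submitters' processing notes, with no role or order. Strand and the handling of shared reads are not given in the sources used here.

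The authors deposited 1 table of 14004 genes, whose values are used as a signal: gene counts adjusted to a common library size, never negative and not whole. Inverting a negative binomial quantile adjustment (fitted dispersion 1.6), which is inferred from the values, placed 91.9% of values within 0.1 of a whole read (85.6% to 99.7% by library). Of the gene identifiers, 95.4% matched GENCODE M21. The read depths in the text are these recovered reads, and precision is given by the replicate error.

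limma 3.58.1 (R 4.3.3) was fitted with the variance trend to log2(value + 1) of the 13058 genes with at least 10 in at least 3 libraries, as 4 group means (8 residual degrees of freedom). Fold changes are differences between mean log2 values on that scale, not ratios of the printed means. The added 1 understates changes of low genes. Benjamini-Hochberg adjustment ran over all tested genes, with a threshold of 0.05 on the adjusted p-value. edgeR 4.0.16 and DESeq2 1.42.0 were run on recovered reads as alternatives, beside other scalings, pseudocounts, filters, variance models, a replicate block and left-out libraries. The limma fit was also run on simulated counts, which were scaled by library totals and not by the inferred adjustment. No pair of libraries was a duplicate: the highest correlation between 2 of them was 0.86 (log2 values).

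The members, gene lists, markers and promoter words were chosen with earlier results of these data known. All 8 members are described whatever their values; list genes are named where they were called, and the 5 closest genes by Pearson correlation, except a few that are not reported here. The contrast over both genotypes and the fit without control thymus libraries 1 and 2 were added after the data were seen.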

Additional observations from a re-analysis of the deposited data

How the results depend on the processing

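In the 4 genotype contrasts no member was called in any of the 944 values from alternative settings, and 55 of these had another sign than the reported estimate. With control thymus libraries 1 and 2 left out, the genotype estimates turned positive in thymus for Gimap3 (0.12), Gimap4 (0.17) and Gimap6 (0.50), and over both tissues for Gimap6 (0.0044); none was called. Leaving out 1 library at a time, the thymus genotype estimates ran from -0.26 to 0.20 for Gimap4 (above 0 without control thymus library 2), -0.39 to 0.55 for Gimap5 (lowest without control thymus library 1), -0.27 to 0.30 for Gimap6 (highest without control thymus library 1) and -0.082 to 0.70 for Gimap8 (below 0 without cKO thymus library 1). Over both tissues Gimap4 ran from -0.19 to 0.039. Between tissues, Gimap5 ran from -0.29 to 0.64 in control cells and Gimap8 from -0.33 to 0.39 in cKO cells. The cause was not tested. Between tissues in control cells, where 1 member was called, 2 were called after quantile normalization and in DESeq2, and 0 without the variance trend, without the 2 shallow libraries, without control thymus libraries 1 and 2 and in edgeR; leaving out 1 library gave 0 to 2. In cKO cells, where 0 were called, quantile normalization and array weights each called 1 (Gimap7). Over both genotypes, where 2 were called, 1 was called after TMM rescaling, without the filter, without the 2 shallow libraries and in edgeR with or without its filter, and 0 without the variance trend; leaving out 1 library gave 1 to 3. Fits to 1 tissue or genotype alone give no value for the contrasts over both or the interaction. Of the 5 genes nearest the mean profile 1 was shared under Spearman, and 0 of those nearest Gimap7. With the replicate number as a block, 0 members were called between tissues in control cells (Gimap7 5.31, limma, adjusted p = 0.089). Over both genotypes 1 was called, Gimap7, while Gimap3 was not (0.90, limma, adjusted p = 0.078). The 4 genotype contrasts and the cKO tissue contrast stayed at 0. In thymus by genotype the block called 36 genes in place of 83. The numbers were not shown to pair the libraries: same-numbered libraries had correlations of -0.096 to 0.080 (0.072 to 0.080 in liver), while 7 of 12 libraries correlated best with their own number within a tissue and 8 of 12 within a genotype. Counts over all genes moved more. By genotype they ran from 0 to 619 in thymus (83 reported), 7 to 620 in liver (66), 77 to 758 over both tissues (297) and 1 to 113 for the interaction (1). By tissue they ran from 12 to 478 in control cells (79), 3 to 264 in cKO cells (29) and 55 to 599 over both genotypes (182). Between tissues in control cells, calls split into 44 higher and 35 lower as reported, 38 and 65 after TMM rescaling. Depth limits the 2 shallow liver libraries most, where Gimap9 rested on 247 and 229 reads and Gimap5 on 384 and 213, read numbers that rest on the inferred adjustment.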
